A study of Drosophila melanogaster with 16 samples.

Results

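The regions described here are the places on the X chromosome of Drosophila melanogaster where ROW or WOC, or both, had a called peak in fly heads and neither HP1c nor HP1b did. Peaks of ROW, WOC, HP1c and HP1b that overlapped by at least 1 bp were merged, which gave 7897 regions in the genome. Of these, 913 lay on X, 820 of them with ROW or WOC, and 602 of those had no HP1 peak. The regions were chosen by the called peaks of these 4 proteins, so the presence of ROW and WOC and the absence of HP1 are given below as description and not as results. H3K4me3, which the choice did not use, carries the tests.

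Chromatin was immunoprecipitated from whole heads of flies of 1 genotype, labelled Actin-gal4/+ (W1118) control. The label names a Gal4 driver and W1118 and no other allele. HP1b and the IgG control have 2 libraries each and the other 4 antibodies have 3 each, which makes 16, and the authors combined the libraries of each antibody into 1 peak list. There is no treatment or time course. The labels give neither age nor sex of the flies, and a head holds many cell types, which these lists cannot separate. Because each antibody has 1 list, the spread between libraries and their depth are unknown. The intervals and p-values below describe the peaks of these lists as counts of regions and cover no variation between flies. Regions are not replicates, and neighbouring regions can share an H3K4me3 peak. A missing peak shows only that none was called.

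ROW and WOC are zinc-finger chromatin proteins known to bind each other and to form a complex with HP1c. HP1c belongs to the heterochromatin protein 1 family, whose various members are found at active genes as well as in heterochromatin. H3K4me3 marks nucleosomes beside the start sites of active genes and is low over the nucleosome-poor start itself, so a promoter typically shows the mark on its flanks. The X chromosome is hemizygous in male flies and its genes are raised in expression there by the dosage compensation machinery. The study's title names BEAF-32, an insulator protein bound near many promoters, whose binding is not among the lists used here.

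At most of the 602 regions ROW and WOC occurred together. Both were present at 339 regions (56.3%, 95% Wilson interval 52.3 to 60.2), while 189 had ROW without WOC (31.4%, 27.8 to 35.2) and 74 had WOC without ROW (12.3%, 9.91 to 15.2). On the 4 main autosomal arms (2L, 2R, 3L and 3R) the same choice gave 2374 regions, of which 56.4% had ROW and WOC together, 33.9% had ROW without WOC and 9.73% had WOC without ROW. The mix of classes on X was thus close to that of the autosomal arms. Regions without HP1 made up 73.4% of all ROW or WOC regions on X and 51.5% on the autosomal arms, with 49.7 to 54.1% on single arms. Relative to the distance between its outermost regions, X held 26.9 such regions per Mb and the autosomal arms 24.2 to 25.4 per Mb.

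Where both proteins were present, their peaks lay almost on top of each other. Of the 339 shared regions, 337 held exactly 1 ROW and 1 WOC peak. The centres of those peaks were a median of 25 bp apart (quartiles 11.5 and 46.5 bp, maximum 448.5 bp), and the shared stretch made up a median of 81.6% of their union. ROW was the wider peak at 270 of the 337 (80.1%), and the WOC peak lay wholly inside the ROW peak at 196 (58.2%). On the autosomal arms ROW was wider at 84.8% of 1328 pairs and the centres were 24 bp apart. At X regions that also carried HP1, by contrast, ROW was the wider peak at 50.3% of 161 pairs. Width serves here as the only size measure of a factor peak, since the factor lists hold no value per peak.

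Shared regions were wide and regions of 1 protein narrow. ROW peaks had a median width of 487 bp (quartiles 387.5 and 657.5 bp) where WOC was present and 328 bp (278 and 381 bp) where it was not. WOC peaks had a median of 420 bp (328 and 536 bp) with ROW and 291.5 bp (256.5 and 356 bp) without it. The quartiles of the shared and unshared ROW peaks did not overlap, while those of the WOC peaks did. The narrowest region was 236 bp wide, close to the narrowest peaks of the whole lists. The autosomal medians were 507 and 314 bp for ROW and 404 and 286 bp for WOC.

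**Figure D1:**
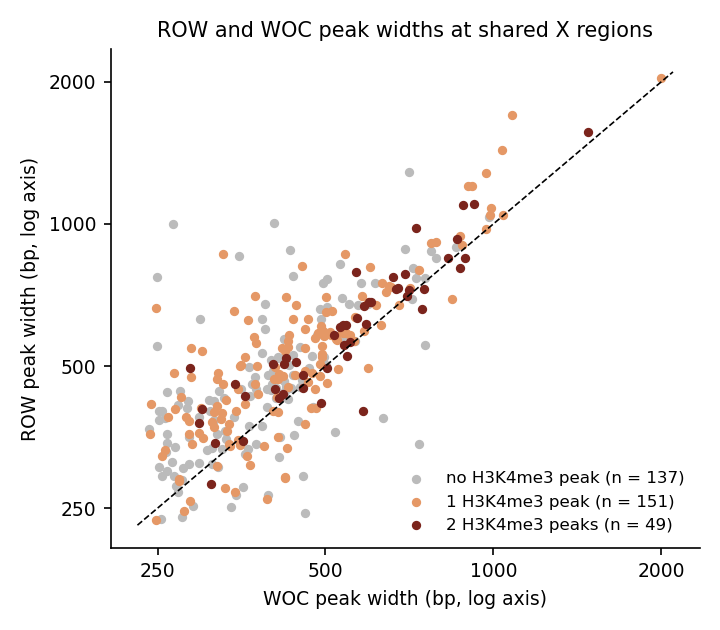
Width of the WOC peak (horizontal, bp, log axis) against width of the ROW peak (vertical, bp, log axis) at the 337 X regions with 1 peak of each, without HP1. Points are regions, coloured by the number of H3K4me3 peaks they overlap, and the dashed line marks equal widths: 270 points have the wider ROW peak.

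The widest regions showed how far the proteins can spread. The widest of all ran from 11609058 to 11611092 on X (dm3, 2035 bp), with a ROW peak of 2034 bp and a WOC peak of 1997 bp that coincided nearly end to end. It touched an H3K4me3 peak of fold enrichment 3.44 over 63 bp at its right end. The next ran from 21500981 to 21502682 (1702 bp), where WOC covered 1078 bp within the ROW peak and the left end lay in an H3K4me3 peak of fold enrichment 6.34. The third ran from 4212079 to 4213641 (1563 bp) and filled the space between a pair of H3K4me3 peaks, of fold enrichment 4.08 and 3.11. All 3 were shared by ROW and WOC and met the mark at their ends. The widest region with no H3K4me3 peak, from 11452691 to 11453977 (1287 bp), had its centre 10589 bp from the nearest summit. The next widest of that kind, from 6592538 to 6593570 (1033 bp), lay only 733 bp from a summit but did not reach the called peak, and the third, from 21258964 to 21259977 (1014 bp), lay 871.5 bp from one. All 3 carried ROW and WOC.

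Fewer than 1 in 2 of the X regions overlapped the promoter mark, and the share was lower than on the autosomal arms. An H3K4me3 peak overlapped 272 of the 602 regions (45.2%, 95% interval 41.3 to 49.2). The share was 33.8% over all 7897 regions of the genome and 42.2% over the 6171 with ROW or WOC. On the autosomal arms 1300 of 2374 regions without HP1 were marked (54.8%, 52.8 to 56.8), and single arms ranged from 51.8% on 2L to 58.7% on 3R. The odds ratio of X against the 4 arms was 0.681 (95% Woolf interval 0.569 to 0.815, Fisher's exact test, two-sided, adjusted p = 6.84e-05 over 13 tests). Against each arm alone it was between 0.581 and 0.767 and stayed called, at an adjusted p of 0.0475 against 2L. H3K4me3 peaks were narrower on X, with a median width of 553 bp against 651 bp on the autosomal arms. When every H3K4me3 peak was replaced by the 1 kb around its summit, an alternative chosen after seeing the data, the odds ratio was 0.858 and no longer called (adjusted p = 0.134, same exact test). Other alternatives moved it away from 1, to 0.315 with an overlap of at least 0.5 of the shorter interval and to 0.416 with only the H3K4me3 peaks above the median fold, both still called. That median, of the whole list, was 3.57, against 3.26 on X and 3.85 on the autosomal arms. The move to 0.416 is thus partly set by a cut that kept a smaller part of the X peaks. With the median of X or of the autosomal arms as the cut, the odds ratio was also below 1 and called.

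The classes differed strongly in how often they were marked. Regions with ROW and WOC overlapped H3K4me3 at 201 of 339 (59.3%, 54.0 to 64.4), regions with ROW without WOC at 47 of 189 (24.9%, 19.3 to 31.5) and regions with WOC without ROW at 24 of 74 (32.4%, 22.9 to 43.7). The odds of the mark at shared regions were 4.40 times those at ROW without WOC (interval 2.97 to 6.53, adjusted p = 8.99e-14 by Fisher's exact test) and 3.03 times those at WOC without ROW (1.78 to 5.17, adjusted p = 6.84e-05). A wide region meets a peak more easily: 23.7% of X regions under 300 bp were marked and 61.0% of those of 600 bp or more. With log2 width as a covariate the first odds ratio was 3.10 and still called, and the second was 1.69 and not called (adjusted p = 0.139, n = 413). With an overlap of at least 0.5 of the shorter interval they were 0.933 and 1.82 and neither was called. With a gap of 500 bp allowed they were 4.27 and 4.60, with 1 kb around each summit 4.05 and 3.87, and with only the H3K4me3 peaks above the median fold 2.22 and 2.16, all called.

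Set beside the autosomal arms, the 2 classes with ROW were marked less often on X, and for the class without ROW no difference was called. Shared regions were marked at 59.3% on X and 70.0% on the autosomal arms (odds ratio 0.626, 0.489 to 0.800, Fisher's exact test, adjusted p = 0.000465). Regions with ROW without WOC were marked at 24.9% and 38.9% (0.520, 0.363 to 0.745, same exact test, adjusted p = 0.000465). Regions with WOC without ROW were marked at 32.4% on X and 22.1% on the autosomal arms (1.69, 0.951 to 3.02), which was not called (exact test, adjusted p = 0.114). The direction of this last contrast turned with an overlap of at least 0.5 of the shorter interval (0.768) and with only the wide factor peaks (0.709), neither of them called. The contrast of shared regions lost its call against 2L alone (0.735) and 2R alone (0.718) and with a gap of 500 bp allowed (0.756), and both ROW contrasts lost theirs with 1 kb around each summit (0.820 and 0.724). They were lower and still called under others, the first at 0.275 with an overlap of at least 0.5 and at 0.337 with only the H3K4me3 peaks above the median fold, and the second at 0.319 with only the wide factor peaks. The cut at the median fold of the whole list kept a smaller part of the X peaks than of the autosomal ones. A test of the difference between classes, chosen after seeing these values, compared WOC without ROW against each ROW class between X and the autosomal arms. The ratio of odds ratios was 2.71 against ROW with WOC (1.45 to 5.07, Wald test of a logistic interaction, n = 1982 regions, adjusted p = 0.00234 over 5 added tests). It was 3.26 against ROW without WOC (1.65 to 6.43, n = 1299 regions, adjusted p = 0.00111). Both lost the call with an overlap of at least 0.5 of the shorter interval (2.79 and 2.12) and with only the wide factor peaks (1.30 and 2.23), and the first also against 2L alone (2.55) and 2R alone (1.91).

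**Figure D2:**
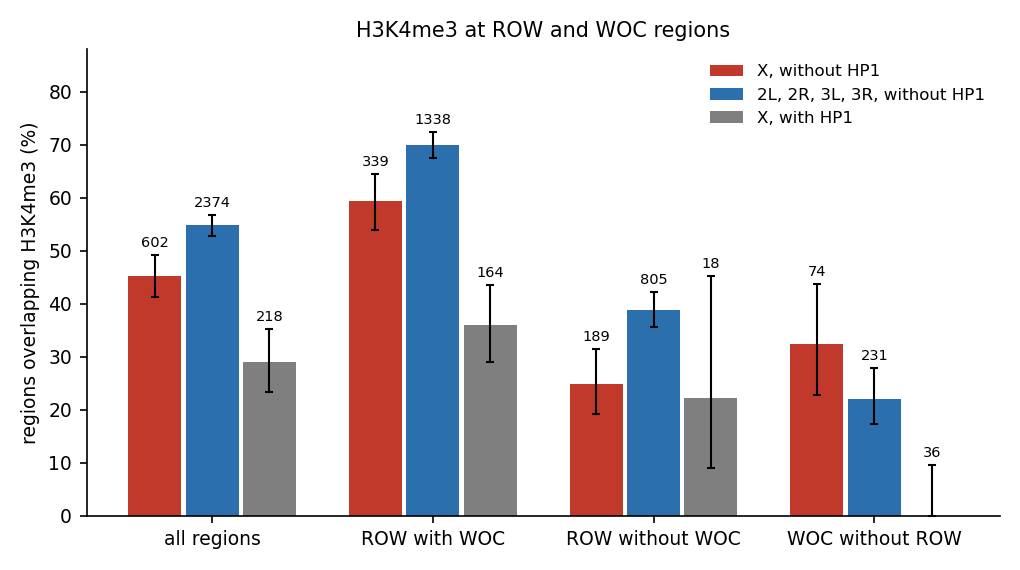
Share of regions that overlap an H3K4me3 peak by at least 1 bp (vertical, %) for all regions and for each class, on X without HP1, on the 4 autosomal arms without HP1 and on X with HP1. Bars are shares, error bars 95% Wilson intervals and the numbers above them regions. The X bar is below the autosomal bar for both classes with ROW (59.3 against 70.0% and 24.9 against 38.9%) and above it for WOC without ROW (32.4 against 22.1%).

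The mark lay beside the X regions and seldom over their centres. An H3K4me3 peak covered the centre of 50 of the 602 regions (8.31%, 6.36 to 10.8). Of the 1204 positions 500 bp from a centre, with both sides of each region counted, a peak covered 35.4%. At X regions with HP1 the centre was covered at 1.83%, and the share over all regions of the genome is not given here. On the autosomal arms the centre was covered at 547 of 2374 regions (23.0%, 21.4 to 24.8). The maximum there lay at 400 bp, with 42.5% of 4748 positions on both sides covered. The odds ratio for a covered centre on X was 0.303 (0.223 to 0.410, Fisher's exact test, adjusted p = 2.38e-17 over 5 added tests), and this contrast was chosen after seeing the data. It lay between 0.265 and 0.334 against single arms. With only the H3K4me3 peaks above the median fold of X or of the autosomal arms, it was 0.274, and with only the wide factor peaks it was 0.158. By class, the centre was covered on X and on the autosomal arms at 7.96% and 25.6% of shared regions, at 10.1% and 23.4% of regions with ROW without WOC and at 5.41% and 6.93% of those with WOC without ROW. The narrower X peaks stand beside this contrast too, and their part in it was not tested.

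**Figure D3:**
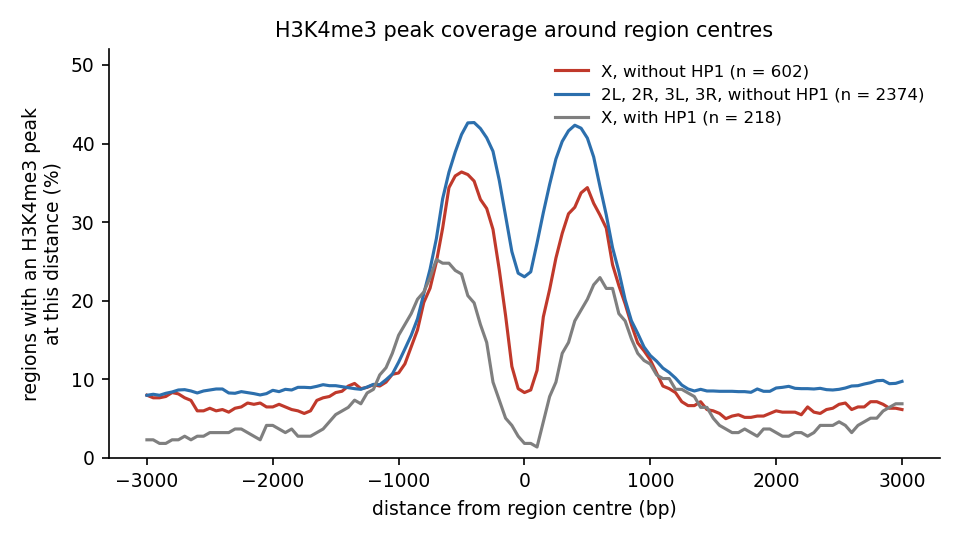
Share of regions with an H3K4me3 peak (vertical, %) at each distance from the region centre (horizontal, bp, every 50 bp) on X without HP1, on the autosomal arms without HP1 and on X with HP1. All 3 curves have a maximum on each side and a dip at the centre, where the values are 8.31, 23.0 and 1.83%.

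Marked X regions mostly met their peak at an edge. Of the 223 X regions that overlapped exactly 1 H3K4me3 peak, 182 (81.6%) overlapped it in part, 38 lay wholly inside it and 3 enclosed it. On the autosomal arms 718 of 1115 (64.4%) overlapped in part and 388 lay inside. Over the 272 marked X regions the mark covered a median of 23.5% of the region (quartiles 12.4 and 38.6%), against 44.4% (24.5 and 100%) over the 1300 autosomal ones. The summit itself lay within the region at 21 of the 223 (9.42%) on X and at 223 of the 1115 (20.0%) on the autosomal arms.

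A set of 49 regions spanned the space between a pair of H3K4me3 peaks. All 49 carried both ROW and WOC, as did 180 of 185 such regions on the autosomal arms and 201 of the 272 marked X regions. To be counted here, a region must reach across the gap between the peaks (median 397 bp, minimum 243 bp). The X regions with ROW without WOC and with WOC without ROW had median widths of 328 and 291.5 bp. The part of width in this was not tested. The 49 made up 18.0% of the 272 marked regions (13.9 to 23.0), against 14.2% on the autosomal arms, a difference that was not called (odds ratio 1.32, 0.937 to 1.87, Fisher's exact test, adjusted p = 0.132). The direction turned with only the H3K4me3 peaks above the median fold (0.639, not called). It was called with a gap of 500 bp allowed (1.39, exact test, adjusted p = 0.0236) and with only the factor peaks at least as wide as the median of their list (1.46, adjusted p = 0.0485). The centre of all 49 lay between the summits, at a median of 46.5% of the way from the nearer one. On the autosomal arms 184 of 185 centres lay between the summits, at a median of 44.7%. A region that overlaps both peaks tends to have its centre between them, so the choice largely sets this position. On X the summits were a median of 817 bp apart (quartiles 699 and 965 bp) and the called peaks were separated by a median of 397 bp. The stronger peak of an X pair had a median of 1.24 times the fold of the weaker, with a maximum of 2.71 times. The autosomal median was 1.25 times. How far unpaired peaks differ in fold was not measured, so these values do not show a likeness within pairs.

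The most strongly marked regions of this kind lay at 15783930 to 15784712 on X, between peaks of fold enrichment 5.13 and 4.57, at 15597773 to 15598213, between peaks of 4.85 and 4.31, and at 4434625 to 4434947, between peaks of 4.54 and 4.05. The first was 783 bp wide with its ROW peak covering all of it, and the third only 323 bp wide, with a WOC peak of 311 bp and a ROW peak of 281 bp. A lopsided example ran from 15763684 to 15764239, between a peak of fold enrichment 2.44 that was 387 bp wide and one of 6.62 that was 1560 bp wide. Counting a peak within 1 kb of the centre on each side, whether as 1 spanning peak or as separate ones, the mark stood on both sides at 151 of the 602 X regions (25.1%), on 1 side at 236 (39.2%) and on neither at 215 (35.7%). On the autosomal arms these shares were 36.8%, 31.8% and 31.4%. Among X regions marked on both sides, the centre itself was free of the mark at 101 of 151, against 327 of 874 on the autosomal arms.

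About 1 in 2 centres lay 200 to 600 bp from an H3K4me3 summit (49.5%), and the others were spread over a long range. The median distance from the centre of a region was 583 bp on X (quartiles 346 and 3415 bp). It was 480 bp for ROW with WOC, 1514 bp for ROW without WOC and 3011 bp for WOC without ROW, against 377, 854 and 6038 bp on the autosomal arms. Within 1 kb of a summit lay 365 of the 602 centres (60.6%, 56.7 to 64.5), against 64.9% on the autosomal arms and 49.2% of all ROW or WOC regions. That difference was not called (odds ratio 0.833, upper bound 1.001, Fisher's exact test, adjusted p = 0.0742). Within 500 bp it was called, at 0.641 (exact test, adjusted p = 4.14e-06), as it was within 1 kb with only the H3K4me3 peaks above the median fold (0.443). That median, of the whole list, was 3.57, against 3.26 on X and 3.85 on the autosomal arms. The cut thus kept a smaller part of the X peaks than of the autosomal ones. With the median of X or of the autosomal arms as the cut, the 1 kb difference was not called. Of the 365, 298 (81.6%, 77.4 to 85.3) lay 200 to 600 bp from the summit, against 80.5% on the autosomal arms (odds ratio 1.08, 0.805 to 1.45, exact test, adjusted p = 0.713), a contrast whose direction turned under 4 alternatives (0.701 to 0.943), none of them called. Only 12 regions (1.99%) had their centre less than 200 bp from a summit, against 125 of 2374 (5.27%).

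**Figure D4:**
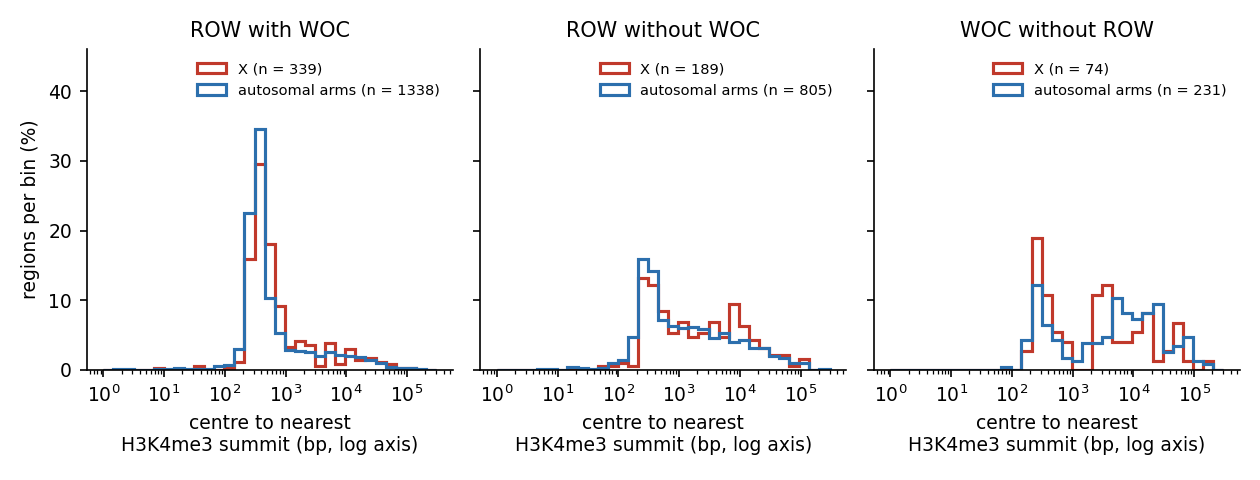
Distance from region centre to the nearest H3K4me3 summit (horizontal, bp, log axis) as a share of each class per bin (vertical, %), for X and for the 4 autosomal arms, without HP1. Shared regions pile up below 1 kb (X median 480 bp), while both classes of 1 protein are spread more widely (X medians 1514 and 3011 bp).

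The 330 X regions that overlapped no H3K4me3 peak were not all far from one. Their centres were a median of 3026 bp from a summit (quartiles 844 and 10797 bp). Of these, 97 lay within 1 kb of a summit without reaching the called peak, and 86 lay more than 10 kb away. More than 10 kb from any summit lay 29 of the 339 shared regions (8.55%), 37 of the 189 with ROW without WOC (19.6%) and 20 of the 74 with WOC without ROW (27.0%). The farthest was 146561 bp from a summit and carried WOC alone.

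Where X regions were marked, the fold of the mark was lower than on the autosomal arms, as it was on X in general. The strongest H3K4me3 peak at a marked X region had a median fold of 3.64 by the authors' values (quartiles 3.16 and 4.14), against 4.34 (3.67 and 4.99) on the autosomal arms and 4.31 to 4.39 on single arms. It exceeded the median of the whole H3K4me3 list, 3.57, at 142 of 272 X regions (52.2%) and at 1012 of 1300 autosomal ones (77.8%), and at 74.4% of all marked regions of the genome. The odds ratio was 0.311 (0.237 to 0.408, Fisher's exact test, adjusted p = 1.18e-15). H3K4me3 peaks as a whole had a median fold of 3.26 on X and 3.85 on the autosomal arms, so the lower value was shared by X peaks in general. The sex of the flies is not given, so the dose of X DNA in these heads is unknown. Its part in the lower fold was not tested.

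Among the H3K4me3 peaks of X itself, those at ROW or WOC regions without HP1 were stronger than those with no factor. They were not the strongest, since peaks that met only other factor regions had a higher median fold. Of the 907 peaks on X, 316 (34.8%) overlapped a ROW or WOC region without HP1, 81 only another factor region and 510 no factor. A peak that met both kinds of region was counted among the 316. The median fold was 3.52 (quartiles 2.98 and 4.08) at the first, 3.75 at the second and 2.95 (2.46 and 3.52) where no factor was called. Above the X median lay 203 of the 316 (64.2%) and 187 of the 510 without a factor (36.7%), an odds ratio of 3.10 (2.32 to 4.16, Fisher's exact test, adjusted p = 7.48e-14). With a gap of 500 bp allowed it was 1.93 and still called. The X peaks with such a region were also wider, with a median of 580 bp against 517 bp with no factor. A wide peak meets a region more easily, and the part of peak width in this contrast was not tested. The share of X peaks with such a region went from 21.1% in the weakest of 4 equal groups by fold to 27.8%, 40.7% and 49.8% in the strongest. On the autosomal arms such groups held 16.0%, 30.4%, 41.0% and 42.3%. The difference between peaks at regions without HP1 and peaks with no factor, taken against the median fold of X or of the autosomal arms and leaving out peaks at other factor regions, did not differ detectably between X and the autosomal arms (ratio of odds ratios 0.865, 0.625 to 1.20, Wald test, n = 4298 peaks, adjusted p = 0.382). With an overlap of at least 0.5 it was 0.521, not called. Within X, 5 H3K4me3 peaks were each shared by 2 of the regions.

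**Figure D5:**
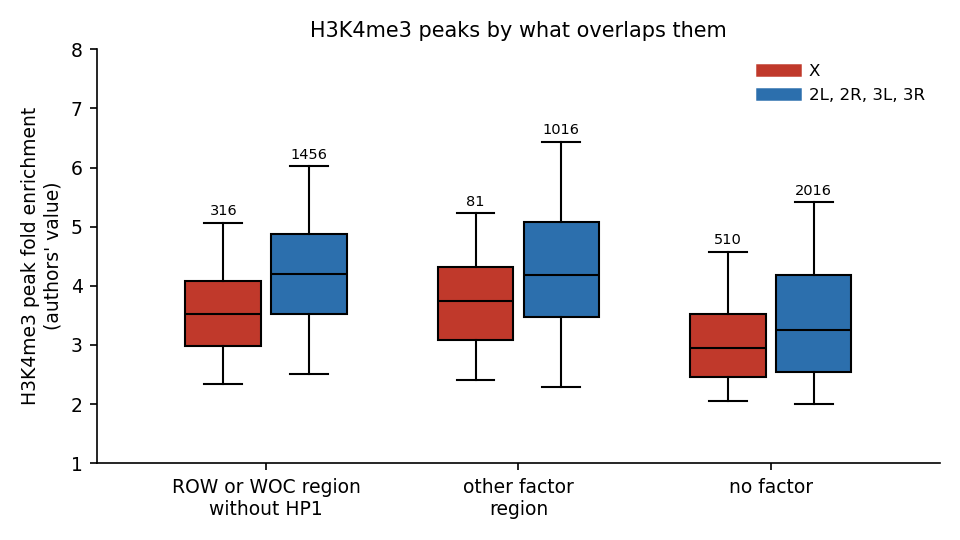
Fold enrichment of H3K4me3 peaks (vertical, the authors' value) by what overlaps them, on X and on the 4 autosomal arms. Boxes span the quartiles with the median as a line, whiskers run from the 5th to the 95th percentile and the numbers are peaks. X lies below the autosomal arms in all 3 groups, and within X the peaks at regions without HP1 (median 3.52) lie above those with no factor (2.95).

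Examples show how strong marks accompanied each class. The highest fold at a region with ROW and WOC was the 6.62 described above, followed by 6.34 at 21500981 to 21502682 and 5.88 at 15729422 to 15730117. Among regions with ROW without WOC the highest was 5.94, at a single H3K4me3 peak from 6259986 to 6260739 that carried a pair of separate ROW peaks. One ran from 6259735 to 6260077 across its left edge and the other from 6260334 to 6260680 inside it. The next, at 6119106 to 6119389, met a peak of fold enrichment 5.13 over 69 bp at its left end. Among regions with WOC without ROW the highest were 5.21 at 8330890 to 8331166, 4.93 at 18737497 to 18737743 and 4.87 at 6195260 to 6195510. Each of these WOC peaks was under 300 bp wide and overlapped the edge of its H3K4me3 peak by 80 to 91 bp.

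On X, regions without HP1 were marked more often than regions with it. Of the 218 X regions with ROW or WOC and with HP1c or HP1b, 63 were marked (28.9%, 23.3 to 35.2), against 45.2% without HP1 (odds ratio 2.03, 1.45 to 2.83, Fisher's exact test, adjusted p = 6.84e-05). Regions with HP1 were wider, with a median of 601 bp against 408.5 bp, and with log2 width as a covariate the odds ratio was 3.92, and it was 3.89 with only the wide factor peaks. It lost its call with only the H3K4me3 peaks above the median fold (1.37, exact test, adjusted p = 0.208). None of the 36 X regions with WOC and HP1 but no ROW was marked (interval 0 to 9.64%), against 24 of the 74 without HP1. Such regions were seldom marked on the autosomal arms too, at 13 of 373 (3.49%) with HP1, against 51 of 231 (22.1%) without. The autosomal arms had 54.8% without HP1 and 37.4% with it, and the contrast by HP1 did not differ detectably from that on X (ratio of odds ratios 0.997, 0.700 to 1.42, Wald test of the interaction, n = 5429 regions, adjusted p = 0.987). An H3K4me3 peak covered the centre of 4 of the 218 regions with HP1 (1.83%), against 8.31% without (odds ratio 4.85, 1.73 to 13.6, exact test, adjusted p = 0.000978, chosen after seeing the data), which was not called with only the wide factor peaks (2.70, adjusted p = 0.438). With only the H3K4me3 peaks above the median fold it was 12.2 (1.66 to 89.7), and 13.4 (1.82 to 98.4) with those above the median of X or of the autosomal arms, both called and with wide intervals.

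Along the chromosome the regions were spread over its whole length. The 22 complete 1 Mb intervals held between 18 and 56 regions, with a median of 25.5. The fullest ran from 15 to 16 Mb, with 56 regions, 31 of them marked, and 78 H3K4me3 peaks, the most of any interval. The emptiest were those from 4 to 5 Mb and from 7 to 8 Mb, with 18 regions each, and 34 and 36 H3K4me3 peaks. Across the 22 intervals Spearman's rho was 0.613 with the number of H3K4me3 peaks and 0.190 with the number of ROW or WOC regions that carried HP1, given as a description of intervals that share 1 set of lists. The interval from 12 to 13 Mb held 31 regions and 29 H3K4me3 peaks, and that from 21 to 22 Mb held 27 and 28. The densest 50 kb of X lay in the first of these, from 12618754 to 12660306, with 10 regions. Of these, 5 had ROW without WOC, 3 had both and 2 had WOC without ROW, and H3K4me3 overlapped only the last 2.

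Neighbouring regions were often close. The nearest other region of the same kind was a median of 5970 bp away (quartiles 2302 and 14954 bp), within 5 kb for 274 of the 602 (45.5%) and within 2 kb for 125 (20.8%). The autosomal median was 6651 bp, with 41.6% within 5 kb. The nearest HP1c or HP1b peak was a median of 17872 bp away on X and 7494 bp on the autosomal arms, and it lay within 10 kb of 35.4% and 58.6% of regions. Since HP1 peaks decided which regions were chosen, these distances are a description.

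By distance to a called HP1 peak, few regions lay near the limit of the choice. HP1 signal too weak to be called cannot be seen in these lists. An HP1 peak stood within 1 kb of 17 of the 602 regions (2.82%), against 171 of 2374 on the autosomal arms (7.20%). On X the smallest gaps were 83, 142 and 177 bp. The first of these, from 3565491 to 3566110, carried ROW and WOC between a pair of H3K4me3 peaks of fold enrichment 3.52 and 3.49. The second, from 4596049 to 4596352, carried ROW alone and the third, from 7570417 to 7570806, WOC alone. Just outside, the smallest overlaps of an HP1 peak with a ROW or WOC peak were 50 bp at 173515 to 174186, 96 bp at 10138012 to 10138530 and 115 bp at 16703075 to 16703482, and in each of them the HP1 peak was an HP1c peak under 300 bp wide.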

How the data were processed

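ROW, WOC, HP1c, HP1b, H3K4me3 and IgG were profiled by ChIP-seq in fly heads (16 libraries). Bowtie2, SAMtools, MACS2, deepTools and the build dm3 are listed by the submitters' processing notes, with no versions, roles or thresholds. Factor lists were deposited as positions alone. For H3K4me3 the authors also deposited a fold enrichment (a ratio), the -log10 q-value and a score per peak, and the peak names in the file name MACS2 and IgG. These values only rank or describe H3K4me3 peaks, and 1 further column of that list was not used. Depth is unknown, since no counts were used.

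Coordinates are dm3 and 1-based. No genome or gene annotation of dm3 was used, so genes, motifs and sequences are not analysed here. Regions are merged peaks, X excludes XHet, and the distance of a region runs from its centre to the nearest H3K4me3 summit. Shares carry 95% Wilson intervals and odds ratios Woolf intervals, which cover counting error only. Fisher's exact tests were two-sided. Differences between contrasts used the Wald test of a logistic model. The Benjamini-Hochberg adjustment ran over 13 planned tests and over 5 tests added after seeing the data, with 0.05 as the threshold. Widths, classes and spacing come from the lists that chose the regions and were not tested. The regions and tests were chosen with earlier results of these data known. Named regions followed a rule: the 3 widest, the 3 with the highest H3K4me3 fold in each class, the 3 spanning a pair of peaks whose weaker peak was strongest, the 3 widest unmarked, the densest 50 kb, the fullest and emptiest 1 Mb and the 3 nearest to either side of the limit. The farthest region and the intervals from 12 to 13 and 21 to 22 Mb were named after their values were seen. The functions were tested on simulated data. Tests ran in SciPy 1.17.1 and statsmodels 0.14.6 under Python 3.11.15, with pandas 2.3.3, NumPy 2.4.6 and matplotlib 3.10.9.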

Additional observations from a re-analysis of the deposited data

Results flagged for a closer look

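The contrast in marked share between X and the autosomal arms differed between WOC without ROW and each class with ROW, by a test of the difference itself that was chosen after seeing the data. The ratio of odds ratios was 2.71 against ROW with WOC and 3.26 against ROW without WOC. The class rests on 74 X regions, 24 of them marked, and its own contrast with the autosomal arms was not called (1.69, Fisher's exact test, adjusted p = 0.114). The direction of that contrast turned with an overlap of at least 0.5 of the shorter interval (0.768) and with only the wide factor peaks (0.709). Both differences between classes lost their call under these settings, at 2.79 and 2.12 with the overlap of 0.5 and at 1.30 and 2.23 with the wide peaks. The difference from ROW with WOC also lost it against 2L alone (2.55) and 2R alone (1.91).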

How the results depend on the processing

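No paired analysis was possible because the lists pool the replicates of an antibody, so that none could be left out either. Sequence content was not analysed without a dm3 genome. Of 211 recomputed values, 169 had the same direction and the same side of the threshold, 16 were no longer called, 9 were newly called and 17 turned. All but 1 of those 17 were uncalled before and after. Calls held under every alternative tried for the strength of the marking peak (odds ratios 0.244 to 0.362), for X peaks with a region against those with no factor (1.93 to 3.11) and for centres inside a peak, X against autosomes (0.158 to 0.334). For the marking peak, no alternative used the median of X or of the autosomes, though all X peaks had a lower median fold (3.26 against 3.85). The 1 kb around each summit was not tried for centres inside a peak. The X against autosome difference in marked share held under 14 of 15.

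Merging over 200 bp turned the ratio of odds ratios that compares the contrast by HP1 between X and the autosomes (1.05). This ratio lay near 1 throughout. It also turned with a gap of 500 bp (1.11), H3K4me3 above the median fold (1.26) and no HP1 within 1 kb (1.03). The same held with the 2 Mb nearest the centromere left out (1.02), log2 width (1.05), 3L alone (1.16), 3R alone (1.19) and the median of X or of the autosomes (1.09). An overlap of 0.5 turned WOC without ROW (0.768) and ROW with WOC against ROW without WOC on X (0.933), and weakened ROW with WOC against WOC without ROW (1.82) and the class differences (2.79 and 2.12). The gap of 500 bp weakened ROW with WOC (0.756) and strengthened paired peaks (1.39). H3K4me3 above the median fold weakened the contrast by HP1 on X (1.37), turned paired peaks (0.639) and the 200 to 600 bp share (0.701), and strengthened the 1 kb share (0.443). That cut, at the median of the whole list, kept a smaller part of the X peaks than of the autosomal ones. With the median of X or of the autosomes instead, the 1 kb share was not called. The 1 kb share was also called with no HP1 within 1 kb (0.787), wide factor peaks (0.724), the 2 Mb left out (0.786), 500 bp (0.641) and 3R alone (0.705). Wide factor peaks turned WOC without ROW (0.709) and the 200 to 600 bp share (0.721), strengthened paired peaks (1.46) and weakened the class differences (1.30 and 2.23) and centres by HP1 (2.70). Log2 width weakened ROW with WOC against WOC without ROW (1.69). The 200 to 600 bp share was called with peak centres (1.35) and turned with 3R alone (0.943) and the median of X or of the autosomes (0.799). With 2L alone and 2R alone, ROW with WOC (0.735 and 0.718) and its class difference (2.55 and 1.91) lost the call. The 1 kb around each summit, chosen after seeing the data, weakened the marked share (0.858) and its values for ROW with WOC (0.820) and ROW without WOC (0.724). The cause was not tested for any of these.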
